A study of Mus musculus with 5 samples.

Results

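The apical coat of the uterine luminal epithelium was followed through 10 genes for surface mucins and sialomucins, which were taken by gene name from a count table of 23420 genes. They are the transmembrane mucins Muc1, Muc4, Muc13, Muc15, Muc16 and Muc20 and the sialomucins Podxl, Cd24a, Cd164 and Emcn. Of these 10 genes, 9 had a row in the table, Muc16 was not analysed here, and 7 passed the filter, an average CPM of 1 or more across libraries, where CPM is a count divided by the library total and multiplied by 1000000. Levels given below in CPM are instead divided by the library size as scaled by TMM. Surface mucins are long proteins that carry dense O-linked sugars, many of them ending in sialic acid, and they extend from the apical membrane into the lumen. Their length and negative charge keep other cells and molecules at a distance. In the mouse uterus Muc1 is known as a barrier that is under the control of ovarian steroids, while podocalyxin, encoded by Podxl, is known as an anti-adhesive sialomucin of several epithelia.

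The libraries were made from the luminal layer of uteri of wild-type C57BL/6N mice on days 3, 4 and 5 of pregnancy, and no treatment or age is named. There were 5 libraries, 1 per condition: D3 morning, D4 morning, D4 evening, and for D5 morning the layer lying away from the attached embryo, whose label names the M (mesometrial) pole, and the layer next to the embryo, whose label names the AM (anti-mesometrial) pole. How many mice contributed to each library and how the layers were cut out are not given for these mice in the sources used here. For its Lif mutant and floxed mice the study describes laser microdissection. It cites the same earlier report for that method and for the luminal epithelium of D4 and D5 morning. With 1 library per condition there is no replicate check, so no p-value is given, and each difference is between 2 libraries. Total counts were 15334674 for D3 morning, 19529491 for D4 morning, 16560409 for D4 evening, 16702914 for the M pole and 19136032 for the AM pole, and series of 5 values follow that order.

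The label of the tissue was compared with marker genes before the mucins were read. All 10 epithelial markers were counted in every library, with summed levels of 5638, 6714, 5867, 4937 and 8341 CPM from D3 morning to the AM pole. Epcam, an epithelial adhesion molecule, led them at the AM pole at 1524 CPM, and Cldn3, a tight junction protein, led in the other libraries. The 7 gland markers, 6 of them with a row, summed to between 1.45 and 4.51 CPM in the libraries other than the AM pole and to 30.4 CPM there. Of the latter, Lif, which stromal cells are also known to make, took 17.7 CPM. From D4 morning to the AM pole, Lif went from 17 to 304 counts, Spink3 from 8 to 81, Prss29 from 0 to 74, Prss28 from 0 to 44, the gland factor Foxa2 from 51 to 21 and Wfdc3 from 5 to 0. The library at the AM pole stood apart from the rest in other markers too. Its embryo markers summed to 99.7 CPM against 12.6 CPM or less elsewhere, with 22 counts of Cdx2, 68 of Pou5f1 and 10 of Nanog, early embryo factors that had 0 counts in every other library. Tfap2c, a trophoblast factor, was the most abundant embryo marker there at 39.1 CPM, and Krt42 was at 0. Its leukocyte markers, led by Lyz2, summed to 61.6 CPM against 262 CPM or more elsewhere. The 6 smooth muscle markers summed to 10.9, 18.9, 24.4, 31.8 and 395 CPM, most of the last from Des, which encodes desmin of muscle and decidual cells, at 354 CPM. From D4 morning to the AM pole, Des went from 293 to 6090 counts, Acta2 from 27 to 272 and Tagln from 11 to 192. Myh11 went from 9 to 73 and Cnn1 from 0 to 118, but both passed the filter only through the AM pole library. Actg2, from 0 to 52, did not pass it. For this reason no share of these markers past a log2 change of 1 is given. The 10 stromal markers summed to 593, 509, 602, 548 and 375 CPM, and Hand2 led them at the AM pole at 132 CPM. From D4 morning to that library they went opposite ways, with log2 changes of 4.88 for Hand2 and 1.61 for Col1a1 but -3.02 for Lum, -2.34 for Dcn, -2.05 for Col3a1 and -1.69 for Col1a2. The part of these cells in the mucin values was not tested, and in such bulk samples fewer cells of a type and less RNA per cell cannot be told apart.

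Per length, Cd24a was the most abundant member in every library, followed by Cd164 and Muc1. Cd24a (chromosome 10 of GRCm38/mm10, 43579169 to 43584265) encodes a small sialylated protein that is held in the membrane by a lipid anchor and binds P-selectin and Siglec receptors. Its level in RPKM (CPM per 1000 bases of gene length) was 1144 on D3 morning, 911 on D4 morning, 1257 on D4 evening, 640.2 at the M pole and 1270.5 at the AM pole. It took between 79.5% and 88.8% of the summed RPKM of the members, so that it makes up most of the sum of the list. Between D4 evening and the AM pole, however, Cd24a was nearly level while the sum was higher at the AM pole. Summed over the members, the level was 1314 RPKM on D3 morning, 1034 on D4 morning, 1414.5 on D4 evening, 779 at the M pole and 1598 at the AM pole. Without Cd24a the sums were 170.2, 123, 158, 139 and 328 RPKM in the same order. The sum was highest at the AM pole and lowest at the M pole, but with library totals, with or without Rn45s and Lars2, it was highest on D3 morning. Without Cd24a it was highest at the AM pole and lowest on D4 morning. Among the 12918 genes that passed the filter, the mean level of Cd24a was at percentile 99.7, of Cd164 at 94.8 and of Muc1 at 89.0, whereas Muc20 was at 14.3 and Muc4 at 18.4. Below these leading genes the order changed between libraries. Next after Muc1 came Podxl on D3 morning, D4 morning and at the AM pole, and Emcn on D4 evening and at the M pole. By exact Poisson intervals of the counts, neighbours in this order overlapped for Emcn with Podxl and for Muc20 with Muc4, both at the M pole, and for no others above the floor of 3 counts.

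**Figure D1:**
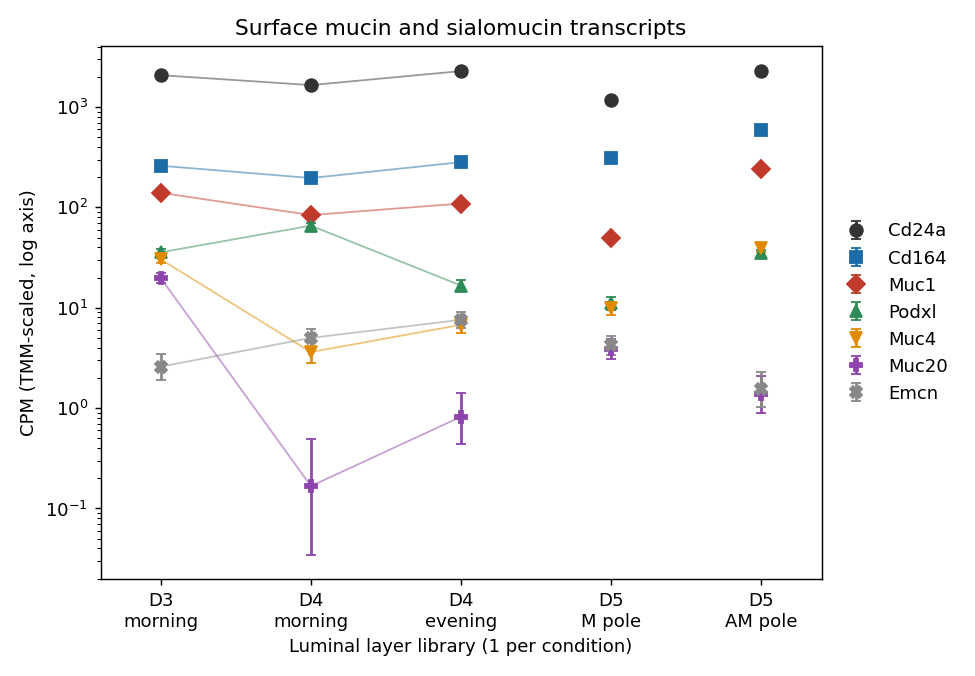
Level of the 7 members that passed the filter in each of the 5 luminal layer libraries, in TMM-scaled CPM on a log axis. Points are single libraries, bars are exact 95% Poisson intervals of the counts, and lines join the libraries before attachment. Cd24a lies at the top throughout, Muc4 and Muc20 are lowest on D4 morning, and Muc1 is highest at the AM pole.

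Muc1, which encodes the main transmembrane mucin of this epithelium, was lower on D4 morning than on D3 morning, lowest at the M pole and highest at the AM pole. It lies on chromosome 3 (89229052 to 89233369, 7 exons, protein-coding). Its counts were 2427 on D3 morning, 1506 on D4 morning, 1730 on D4 evening, 915 at the M pole and 4167 at the AM pole. Scaled by TMM, these are 140, 83.9, 109, 49.1 and 242 CPM, so that the level at the AM pole was above that of every earlier library. The log2 change from D3 to D4 morning was -0.74 [-0.83, -0.64], and with library totals it was -1.04. Here and below, the range in brackets is an exact 95% interval (Clopper-Pearson) for the ratio of the counts and covers counting error only. The log2 changes carry a prior count of 2 and the ranges do not, so at low counts the change is smaller in size than the log2 ratio. From D4 morning, the log2 change of Muc1 was -0.77 [-0.89, -0.65] at the M pole and 1.53 [1.44, 1.61] at the AM pole. The library at the AM pole was thus 2.89-fold above D4 morning and 4.93-fold above its D5 partner. Of the summed RPKM of the mucins with a row, Muc1 made up between 89.5% and 99.1%. Reads from the repeats of mucin genes can align to several places, and how such reads were counted is not stated in the sources used here.

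Muc1 was set beside the epithelial marker genes of the same libraries. At the AM pole the median log2 change of the 10 epithelial markers from D4 morning was 1.19, with 6 higher and 2 lower by more than 1, where 20.7% of all genes were higher and 22.6% lower. Epcam was 1.96 higher and Cdh1, which encodes E-cadherin, 1.15 higher on the log2 scale, so that Muc1 at 1.53 lay between them. At the M pole the marker median was -0.16. There 2 markers were higher and 3 lower by more than 1, against 15% and 14.3% of all genes. Epcam was at 0.70 and Cdh1 at -0.46, and Muc1 at -0.77 lay below both. Krt8 at -1.37, Elf3 at -2.54 and Krt19 lay below Muc1. The keratin Krt18 was nearly level in both D5 libraries, at 0.22 and 0.29, while Krt19 was lower, at -4.33 at the M pole and -2.27 at the AM pole. The epithelial markers therefore differed among themselves by more than Muc1 differed from their median.

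Muc4 and Muc20 overlap on opposite strands of chromosome 16, and both were far lower on D4 morning than on D3 morning. Muc4 (32735886 to 32782390, plus strand) encodes a transmembrane mucin that can bind ErbB2 within the membrane, and Muc20 (32777419 to 32797435, minus strand) a mucin known to associate with the receptor Met. Their exons share 381 bases, which is 3.38% of the counted length of Muc4 and 8.90% of that of Muc20. Without a stated strand setting, reads from these bases cannot be assigned to either gene. Muc4 had 527 counts on D3 morning, 65 on D4 morning, 107 on D4 evening, 184 at the M pole and 673 at the AM pole. It was 8.38-fold lower on D4 morning than on D3 morning (log2 change -3.03 [-3.46, -2.69]). From D4 morning it was 2.73-fold higher at the M pole (1.42 [1.03, 1.88]) and 10.8-fold higher at the AM pole (3.39 [3.06, 3.82]). D3 morning and the AM pole were thus the high libraries of Muc4, at 30.3 and 39.1 CPM, against 3.62 to 9.86 CPM in the others.

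Muc20 had 343 counts on D3 morning, 3 on D4 morning, 13 on D4 evening, 73 at the M pole and 24 at the AM pole. Its highest level was 19.8 CPM, on D3 morning. The ratio of D3 to D4 morning was 118 [40.1, 576], where the 3 counts of D4 morning leave the size uncertain. From D4 morning the log2 change was 3.84 [2.95, 6.86] at the M pole and 2.42 [1.34, 5.44] at the AM pole. Without the prior count, the ratios were 23.4 at the M pole and 8.34 at the AM pole. Whereas Muc4 was 3.96-fold higher at the AM pole than at the M pole, Muc20 was 2.81-fold lower there (log2 change -1.42 [-2.22, -0.81]). The 2 genes therefore had the same direction from D3 to D4 morning and from D4 morning to both D5 libraries, and opposite directions between the D5 libraries. On the log2 scale with a prior count of 2, their range over the 5 libraries was 3.39 for Muc4 and 6.14 for Muc20. Because of the prior count, the range of Muc20 is smaller than the ratio of 118 implies. At a prior count of 0.5 its log2 change from D3 to D4 morning was -6.66. The median range over the 12918 genes was 1.36, and Muc4 and Muc20 lay at percentiles 85.9 and 96.9.

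The mucins Muc13 and Muc15 were at or near 0. Muc13, a mucin of the gut surface, had 0, 0, 2, 1 and 4 counts from D3 morning to the AM pole. Muc15 had 0 counts in all 5 libraries, and the floor of 3 counts taken as the limit of such a count equals 0.161 to 0.190 CPM, while the exact 95% Poisson intervals of 0 counts reach 0.198 to 0.233 CPM. No fold is given for either, and lower levels were not detectable at this depth.

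The sequences before the start of Muc4 and Muc20 are shown because these overlapping genes were low in the same library, and that of Muc1 because it made up most of the mucin level. RefSeq promoters on GRCm38.p6 were matched by symbol for 6 of the 9 genes with a row. The 250 bases before the RefSeq start, which for Muc1 lies 4 bases inside the gene as placed above, are printed 5′ to 3′ on the strand of the gene, with the letters TATAAA and GGGCGG in capitals where they occur on either strand. These 2 motifs were chosen after the sequences had been read. They do not overlap in these windows.
Muc1, chr3:89228806-89229055, plus strand: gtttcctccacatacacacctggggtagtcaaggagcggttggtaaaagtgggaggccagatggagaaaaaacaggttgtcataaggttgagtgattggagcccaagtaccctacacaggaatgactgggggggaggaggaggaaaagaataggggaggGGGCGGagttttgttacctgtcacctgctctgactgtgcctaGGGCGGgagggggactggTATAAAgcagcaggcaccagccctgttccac
Muc4, chr16:32735636-32735885, plus strand: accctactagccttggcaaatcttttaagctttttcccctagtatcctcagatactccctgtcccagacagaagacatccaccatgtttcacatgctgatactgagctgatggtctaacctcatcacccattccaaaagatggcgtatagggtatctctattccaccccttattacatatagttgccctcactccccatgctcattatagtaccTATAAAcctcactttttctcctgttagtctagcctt
Muc20, chr16:32797436-32797685, minus strand: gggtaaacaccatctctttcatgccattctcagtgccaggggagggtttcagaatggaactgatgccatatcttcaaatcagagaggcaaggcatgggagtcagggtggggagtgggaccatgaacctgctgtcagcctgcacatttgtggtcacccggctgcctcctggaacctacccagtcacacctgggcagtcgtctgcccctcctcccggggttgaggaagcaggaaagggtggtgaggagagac

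TATAAA begins 31 bases before the RefSeq start of Muc1 and 36 bases before that of Muc4, and Muc20 has no match. Of the 32851 windows of this length in the table, 12.4% hold TATAAA on either strand. GGGCGG begins 91 and 49 bases before the start of Muc1, against 32.7% of all windows with a match. The letters TTCNNNGAA, the core that Stat proteins bind, were looked for because Lif acts through Stat3 in this epithelium. TTCNNNGAA occurs in none of the 3 printed windows and in 7.02% of all windows. TGTTCT, a core of steroid receptor elements, and TGANTCA, the AP-1 core, also have no match in the 3 windows, against 16.1% and 6.75% of all. Of the matched members with a row whose windows are not printed, Muc13 has TTCNNNGAA and TGANTCA, Cd164 has GGGCGG, and Emcn has none of these motifs. A match or its lack describes only these letters in these windows.

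Podxl, which encodes podocalyxin, took the opposite course to Muc4 before attachment and was highest on D4 morning. It lies on chromosome 6 (31519493 to 31563937, minus strand, 8 exons). Its counts were 620 on D3 morning, 1182 on D4 morning, 263 on D4 evening, 206 at the M pole and 601 at the AM pole. Between morning and evening of D4, the level went from 65.8 to 16.6 CPM, a log2 change of -1.98 [-2.18, -1.79]. It was the only member that was lower by more than 1 in that comparison. At the M pole Podxl was 5.96-fold lower than on D4 morning (-2.56 [-2.80, -2.36]), and at the AM pole 1.89-fold lower (-0.91 [-1.06, -0.77], or -1.06 with library totals without Rn45s and Lars2). The library at the AM pole was 3.16-fold above that at the M pole (1.65 [1.43, 1.90]) and near the level of D3 morning, at 34.9 against 35.7 CPM.

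Cd24a varied least among the members that passed the filter. Its counts were 36074 on D3 morning, 29712 on D4 morning, 36103 on D4 evening, 21684 at the M pole and 39736 at the AM pole. Its log2 change from D4 morning was -0.51 [-0.53, -0.48] at the M pole and 0.48 [0.46, 0.50] at the AM pole. The difference between the D5 libraries was 0.99 [0.96, 1.01], just inside a log2 change of 1, and its sizes of 1.05 with DESeq2 size factors and 0.68 with library totals lie on either side. Cd24a has processed copies in the mouse genome, and reads that fit them equally well make its counts uncertain.

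Cd164 (chromosome 10, 41519500 to 41531042) encodes endolyn, a sialomucin that cycles between the cell surface and lysosomes. Its counts were 4519 on D3 morning, 3522 on D4 morning, 4471 on D4 evening, 5805 at the M pole and 10145 at the AM pole. After its lowest level on D4 morning, every later library was higher. The log2 change from D4 morning was 0.53 [0.46, 0.59] on D4 evening, 0.67 [0.61, 0.73] at the M pole and 1.59 [1.53, 1.64] at the AM pole. Cd164, Muc4 and Muc20 were the members that were higher than on D4 morning in both D5 libraries, and of these Cd164 was the only one within a log2 change of 1 at the M pole.

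Emcn (chromosome 3, 137341078 to 137431069) encodes endomucin, a sialomucin of the endothelium of veins and capillaries, and it was scarce in these layers. Its counts were 45 on D3 morning, 90 on D4 morning, 120 on D4 evening, 79 at the M pole and 27 at the AM pole. The highest level was 7.59 CPM on D4 evening and the lowest 1.57 CPM at the AM pole. From D4 morning the log2 change was -0.24 [-0.70, 0.21] at the M pole, where the interval holds 0 and library totals give 0.04, and -1.61 [-2.35, -1.04] at the AM pole. The 10 endothelial markers summed to 19.6 CPM on D3 morning, 37.9 on D4 morning, 45.4 on D4 evening, 57.8 at the M pole and 118 at the AM pole, with none at 0. Thus Emcn and the summed markers were both higher on D4 than on D3 and went in opposite directions at the AM pole. The median log2 change of the 9 markers that passed the filter was only 0.09 from D4 morning to the AM pole. Cdh5, which encodes VE-cadherin, was the most abundant marker there at 71.4 CPM. Cdh5 was 3.08 higher at the AM pole on the log2 scale, Pecam1 nearly level at 0.04 and Tie1 lower at -1.15, so the endothelial markers did not move together. Their part in the value of Emcn was not tested.

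Read over the list, the members past a log2 change of 1 differed between comparisons. From D3 to D4 morning, of the 7 members that passed the filter, 0 were higher and 2 lower (Muc4 and Muc20), while 18.9% of all 12918 genes were past that change, 7.41% higher and 11.5% lower. The median log2 change of the 7 was -0.41, against 0.00 over all genes. From D4 morning to evening 1 was higher (Muc20) and 1 lower (Podxl), where 14.1% of all genes were past the change, 7.2% higher and 6.94% lower. The medians were 0.53 and 0. At the M pole against D4 morning 2 were higher (Muc4 and Muc20) and 1 lower (Podxl), where 29.2% of all genes were past the change, 15% higher and 14.3% lower. The medians were -0.24 and 0.00. At the AM pole against D4 morning 4 were higher (Muc1, Muc4, Muc20 and Cd164) and 1 lower (Emcn), where 43.3% of all genes were past the change, 20.7% higher and 22.6% lower. Here the member median was 1.53, against -0.03 over all genes. Between the D5 libraries 3 were higher at the AM pole (Muc1, Muc4 and Podxl) and 2 lower (Muc20 and Emcn), where 28.3% of all genes were past the change, 13.3% higher and 15% lower, with medians of 0.99 and -0.05. These comparisons share libraries, so that a low value on D4 morning enters several of them. The counts of genes describe single libraries.

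The calls were also made with edgeR's exact test at a fixed dispersion in addition to the fold, a comparison of single libraries that does not reach to the conditions. At a dispersion of 0.1 the members called were Muc4 and Muc20 from D3 to D4 morning (2 of 7, against 3.73% of all genes) and 0 from D4 morning to evening (against 1.83%). They were Muc20 and Podxl at the M pole (2 of 7, against 11.6%), Muc4 and Muc20 at the AM pole (2 of 7, against 24.3%) and Muc1 and Muc4 between the D5 libraries (2 of 7, against 10.8%). At a dispersion of 0.4, 0 members were called in each of the 5 comparisons. The shares of all genes were then 0.00774% from D3 to D4 morning, 0% to D4 evening, 1.18% at the M pole, 4.49% at the AM pole and 0.944% between the D5 libraries. How many members were called thus depended on the dispersion assumed, which 1 library per condition cannot give.

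**Figure D2:**
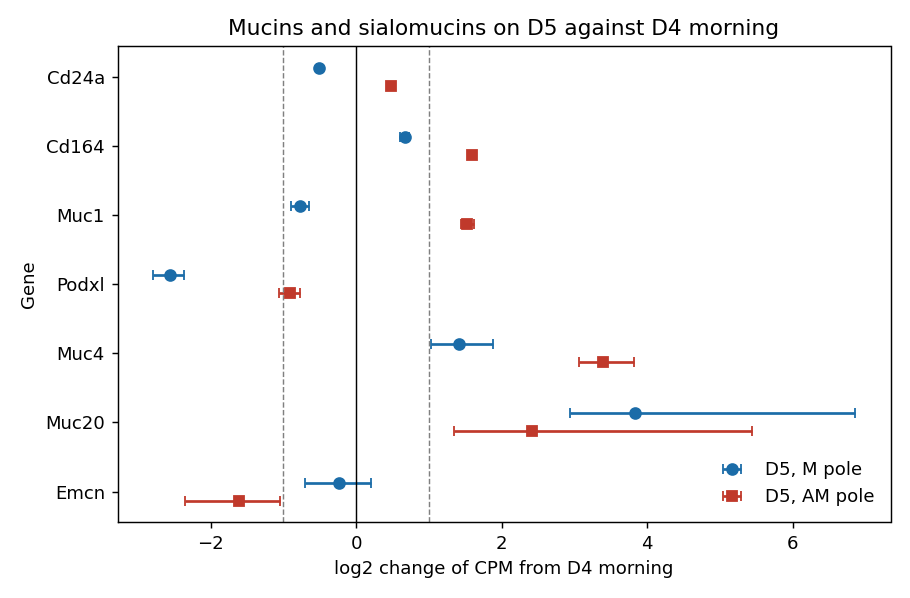
log2 change of CPM from D4 morning for the 7 members that passed the filter, at the M pole (circles) and at the AM pole (squares) on D5 morning. Bars are 95% Clopper-Pearson intervals of the ratio of counts, and dashed lines mark a log2 change of 1 in either direction. Muc1 and Cd24a lie on opposite sides of 0 in the 2 libraries, with Muc1 at -0.77 and 1.53.

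The members differed in the shape of their course over the 5 libraries, and genes of like course were found by the smallest distance between centred log2 CPM profiles. The search ran over 8863 genes that averaged 10 CPM or more, and with 5 points a close match is a description. Nearest to Muc1 were Gpr116, an adhesion receptor, at a distance of 0.41 on the log2 scale, Ptprj, a receptor phosphatase, at 0.45 and Eya2 at 0.57. Gpr116 had 495, 319, 340, 150 and 1020 counts from D3 morning to the AM pole. Nearest to Muc4 were Plekhf1 at 0.57, Ier5l at 0.67 and Rai14 at 0.68. For Podxl they were Sesn2 at 0.53, Timp3, an inhibitor of metalloproteinases, at 0.70 and Dusp16 at 0.77. For Cd164 they were Plekhg3 at 0.13, Cactin at 0.14 and Nup50 at 0.16, and for Emcn Gpx1, a glutathione peroxidase, at 0.23, Zranb3 at 0.33 and Msantd4 at 0.41. Muc20 had no close match among the genes searched, with Cd276 at 1.86, Dclk1 at 1.87 and Nup210 at 2.18. It averaged 5.79 CPM itself, so that genes as scarce as Muc20 were not searched. Its 3 counts on D4 morning also leave its course uncertain. Between the members themselves, Muc1 and Cd24a were nearest at 1.04 and Podxl and Muc20 farthest at 5.60.

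Of the other mucins, the gel-forming Muc5ac was counted almost only in the library at the AM pole. Muc5ac (chromosome 7, 141789011 to 141819135), a secreted mucin of airway and stomach, had 1, 0, 0, 0 and 719 counts from D3 morning to the AM pole. Taken against a floor of 3 counts at the M pole, it was at least 260-fold higher at the AM pole, and the exact interval of the counts allows 211-fold. The same library held the embryo markers given above, and their part in Muc5ac was not tested. Ovgp1, an oviductal mucin-like glycoprotein, had the highest mean RPKM of these 6 genes, although Muc5ac was above it at the AM pole (4.91 against 1.59 RPKM). Ovgp1 had 1936, 3288, 2561, 249 and 69 counts in the same order. It was 13.7-fold lower at the M pole than on D4 morning and 45.7-fold lower at the AM pole. Muc2, Muc6 and Muc19 had at most 9 counts in any library and Muc5b had 0. Among the 6 other sialomucins and selectin ligands, 4 passed the filter, and Cd34, a relative of Podxl, was the most abundant with 280, 471, 508, 454 and 234 counts. At the AM pole Spn, which encodes leukosialin, had a log2 change of 1.39 from D4 morning and Podxl2 of -2.53. The 5 other transmembrane mucins of the list (Muc3, Muc3a, Muc12, Muc17 and Muc21) were not analysed here.

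The sugars of these mucins are started by Galnt enzymes, extended by core and branching enzymes and capped by sialyl- and sulfotransferases. Of the 15 Galnt genes, 10 passed the filter, and 2 were higher and 2 lower at the AM pole than on D4 morning by a log2 change beyond 1, where 20.7% of all genes were higher and 22.6% lower. Galnt1 had the highest mean RPKM, with 99.1 RPKM on D4 morning and 55.4 at the AM pole. Galnt3 was 2.93 higher on the log2 scale, and Galnt18, at 2.53 higher at the AM pole and -1.49 at the M pole, differed most of these 10 between the D5 libraries. Galnt14, which did not pass the filter, had 44 counts at the AM pole and 0 elsewhere. The log2 change of Galnt11 was -2.41 at the AM pole and that of Galnt10 was -2.33 at the M pole, where 2 of the 10 were higher and 3 lower, against 15% and 14.3% of all genes. Of the 5 core and branching enzymes that passed the filter, Gcnt3, which makes branched cores in mucin-secreting tissues, had the highest mean RPKM. It had 14217 counts on D4 morning, 2865 on D4 evening, 514 at the M pole and 1558 at the AM pole, with a log2 change of -4.84 at the M pole. B3gnt3 had the highest log2 change of these 5 at the AM pole, 1.54. Gcnt4, which did not pass the filter, had 0 counts on D4 morning, 49 at the M pole and 35 at the AM pole. C1galt1, which makes the core 1 structure, had a log2 change of 1.34 at the AM pole, and Gcnt1, which branches it, of -3.88. Of the 12 capping enzymes that passed the filter, 3 were higher and 5 lower at the AM pole, against 20.7% and 22.6% of all genes. Of the 3, Chst1, with 11 counts on D4 morning and 54 at the AM pole, passed the filter only through the AM pole library. St3gal1 was 1.72 higher on the log2 scale in both D5 libraries. St6galnac2, of the highest mean RPKM among them, had a log2 change of -2.14 at the AM pole, and St6galnac1 went from 96 counts to 4 at the M pole and 0 at the AM pole, where it was at least 30.7-fold lower against a floor of 3 counts, and the exact interval of the counts allows 24.5-fold. St6galnac3 had the highest log2 change of them at the AM pole, 4.76 [3.96, 7.24], from 4 to 156 counts. Without the prior count its ratio was 40.7. The median log2 change at the AM pole was -0.03 for the Galnt genes, -0.73 for the core enzymes and -0.19 for the capping enzymes, against 1.53 for the members.

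**Figure D3:**
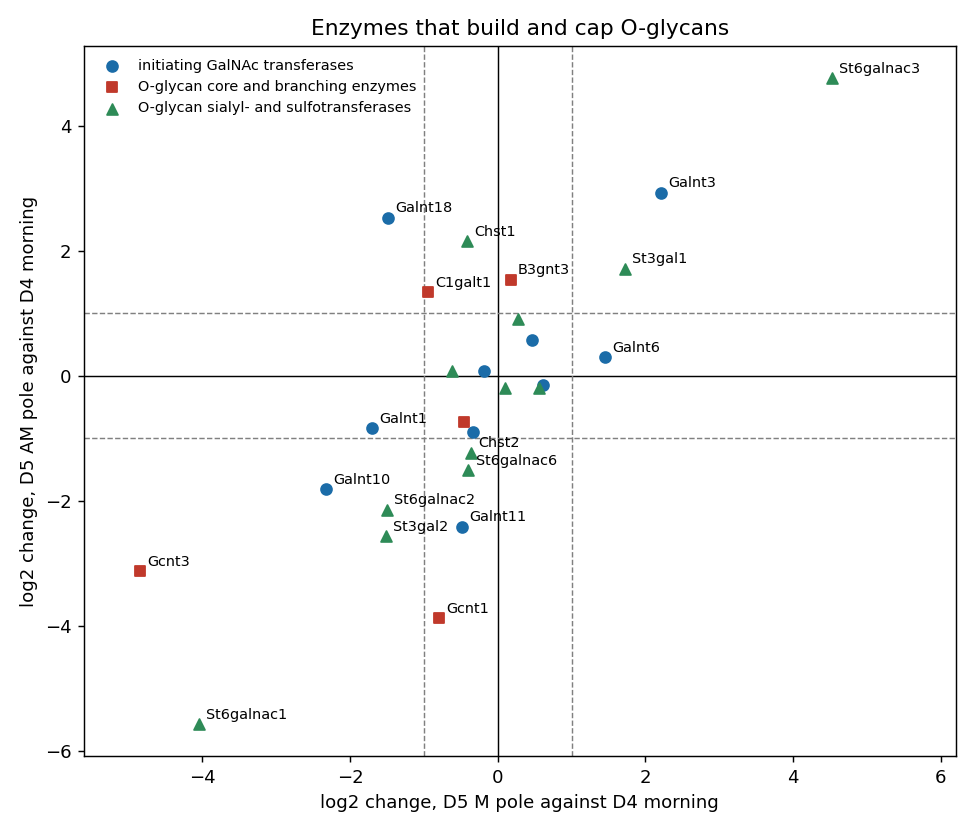
log2 change from D4 morning at the M pole (horizontal axis) and at the AM pole (vertical axis) for the enzymes of O-glycan initiation, extension and capping that passed the filter. Dashed lines mark a log2 change of 1, and genes past it on either axis are named. Gcnt3 lies lowest on the horizontal axis at -4.84, and Galnt18 is lower at the M pole and higher at the AM pole.

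Proteases that release surface mucins and the scaffold that holds podocalyxin were also read. The sheddases Adam9, Adam10, Adam17 and Mmp14 all passed the filter, and Adam10 was the only one past a log2 change of 1 from D4 morning on D5, at 1.04 [0.97, 1.11] at the AM pole, where 20.7% of all genes were higher by more than 1, and -0.29 at the M pole. Mmp14 was the most abundant per length, at 39.9 RPKM on D4 morning and 63.3 at the AM pole. Of the scaffold genes, Ezr, which encodes ezrin, was nearly level, with 7313, 9619, 8677, 7966 and 8888 counts. Rdx, which encodes radixin, had its high library on D4 morning as Podxl did, with 10219, 25669, 9132, 2654 and 2502 counts and a log2 change of -3.33 at the M pole. Between the D5 libraries its log2 change was 0.03, where that of Podxl was 1.65. Msn, which encodes moesin, was 2.59 higher on the log2 scale at the AM pole than on D4 morning, and Slc9a3r1, which links podocalyxin to ezrin, was 1.34 higher there than at the M pole. Its relative Slc9a3r2 had a log2 change from D4 morning of -1.16 at the M pole and -1.66 at the AM pole, and of -0.49 between the D5 libraries. Among the 8 partners and lectins, 4 passed the filter. Ctnnb1 was the most abundant per length, at 217 RPKM on D4 morning. Lgals3, which encodes the mucin-binding galectin-3, was 1.40 higher on the log2 scale at the AM pole, and the log2 change of Egfr was -1.24 at the M pole.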

How the data were processed

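RNA-seq counts of 5 luminal layer libraries were analysed, and their groups were taken from the sample titles. The authors deposited raw counts per gene, which by the submitters' processing notes were made with HISAT2 on GRCm38/mm10 and featureCounts of Subread 2.0.0. The annotation, strand setting and treatment of reads with several alignments are not given in the sources used here. The other column used, per the file headers, is the gene length in bases. The same libraries were examined earlier, and the members and gene lists were chosen with those results known. Counts were scaled by TMM in edgeR 4.0.16 (R 4.3.3), and log2 CPM carried a prior count of 2. The filter kept the 12918 genes whose CPM by library totals averaged 1 or more. A gene was past the fold at a log2 change beyond 1 in either direction. RPKM was computed from the scaled counts and the deposited length. Gene types came from GENCODE vM21 on GRCm38. With 1 library per condition no p-value was given, and edgeR's exact test at a fixed dispersion was run as an alternative only. The fold step was tested on simulated data with counting error only and with changes placed only in the more abundant genes. Such data hold no spread between libraries and do not test scarce genes. Total counts ranged from 15334674 to 19529491, and 3 counts equal 0.161 to 0.190 TMM-scaled CPM. Intervals and floors cover counting error only, and PCR copies are not independent molecules.

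The 9 members with a row were described. The neighbours of a member were the 3 genes of nearest profile, printed where the member varied by more than 1 on the log2 scale. From each list the most abundant gene per length and the largest changes on day 5 were named, and other genes of the lists were named after their values had been seen. Alternatives were DESeq2 1.42.0 size factors, library totals with and without Rn45s and Lars2, a prior count of 0.5, other filters and the exact test at dispersions of 0.1 and 0.4.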

Additional observations from a re-analysis of the deposited data

Results flagged for a closer look

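Muc1 was lower at the M pole than on D4 morning (log2 change -0.77) and higher at the AM pole (1.53). Cd24a went the same 2 ways, at -0.51 and 0.48. Both were picked out because the pair of D5 libraries lay on opposite sides of D4 morning with counting intervals that leave out 0. The pattern was not particular to these 2 genes. The epithelial markers Cdh1, at -0.46 and 1.15, and Elf3, at -2.54 and 1.22, went the same ways, whereas Epcam and Krt19 kept their sign in both D5 libraries. There is 1 library on each side, and the difference was not tested against replicates. The signs of Muc1 and Cd24a held under DESeq2 size factors, library totals with and without Rn45s and Lars2, and a prior count of 0.5.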

How the results depend on the processing

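Of the 35 log2 changes of members (7 genes in 5 comparisons), the sign changed in 1 under library totals, that of Emcn at the M pole (0.04 in place of -0.24), and in none under DESeq2 size factors, library totals without Rn45s and Lars2 or a prior count of 0.5. A log2 change of 1 was crossed by Cd24a between the D5 libraries with DESeq2 size factors (1.05), by Muc1 from D3 to D4 morning with library totals (-1.04) and by Podxl at the AM pole without Rn45s and Lars2 (-1.06). Under library totals the median log2 change of all genes was -0.29 from D3 to D4 morning, 0.28 at the M pole and -0.36 between the D5 libraries, and the changes of members moved with it. Genes higher and lower were 957 and 1490 from D3 to D4 morning, but 538 and 2209 with library totals and 731 and 1816 without Rn45s and Lars2. At the M pole they were 1932 and 1846, but 2690 and 1399 with library totals. Between the D5 libraries they were 1715 and 1943, but 1288 and 2807 with library totals and 1310 and 2707 without Rn45s and Lars2. With the exact test at a dispersion of 0.1 the number of members called was 0 for D4 evening, 2 at the AM pole and 2 between the D5 libraries, in place of 2, 5 and 5, and at 0.4 it was 0 in all 5 comparisons. A dispersion cannot be estimated from these libraries, so that neither value is preferred. The summed RPKM of the members moved beyond its counting error. It was 1294 on D3 morning and 1649.5 at the AM pole with DESeq2 size factors. With library totals it was 1488, 951, 1351, 869.8 and 1439 from D3 morning to the AM pole, and without Rn45s and Lars2 1750.3, 1239, 1698, 1024 and 1726. The M pole was the lowest library under each scaling, whereas D3 morning was the highest under both kinds of library totals and the AM pole under the others. Without a filter Muc13 was also called in 3 comparisons on 4 counts or fewer, and a mean of at least 5 CPM left out Emcn. No paired analysis was possible because each condition has 1 library and the labels carry no replicate numbers. Muc13 and Muc15 are limited by depth.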
